A study of Homo sapiens with 4 samples.

Results

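The genes described here are 40 ATF4 targets and serine synthesis genes, chosen by symbol from the gene table of an RNA sequencing study of A549, a human lung adenocarcinoma cell line. All 40 were found among the 57905 genes of the table. All 40 also passed a filter of a mean of at least 1 CPM (counts relative to the TMM-scaled library total, TMM being a trimmed mean of gene-wise ratios) over the libraries, which 13966 genes passed. The study asked how expression differs when DCBLD2, a transmembrane protein of the neuropilin-like type, is raised or lowered in these cells. There were 4 libraries of poly(A) RNA, 1 per condition. The first was a scramble control (sc) and the second carried a short hairpin RNA against DCBLD2 (shDCBLD2), both on a lentiviral vector with an H1 promoter for the hairpin and puromycin resistance. The third was an empty vector and the fourth was labelled DCBLD2 overexpression, both on a lentiviral vector with an EF1 promoter and blasticidin resistance. According to the methods these were stable lines obtained by infection and selection, and no cisplatin treatment is given in the labels. The 2 controls therefore differ in vector and in selecting drug, and no condition has a replicate.

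DCBLD2 itself went against 1 of the 4 labels. It stood at 504 CPM in sc and 197 CPM in shDCBLD2, but at 434 CPM in the empty vector, against only 242 CPM in the library labelled DCBLD2 overexpression. The log2 ratio was -1.35 for shDCBLD2 over sc and -0.84 for the library labelled DCBLD2 overexpression over the empty vector. Every direction given below for that library comes from cells in which the deposited counts of DCBLD2 were lower, not higher, than in the control. The libraries held 16601633 to 21537283 counts. All 5 epithelial markers (KRT8, KRT18, KRT19, EPCAM and CDH1) and all 8 genes abundant in A549 were above 3 counts in every library. Of 10 blood markers, 3 to 5 were above 3 counts, at a summed level of 9.92 CPM in sc, 5.19 CPM in shDCBLD2, 17.0 CPM in the empty vector and lastly 24.6 CPM in the library labelled DCBLD2 overexpression, and PTPRC was at 0 in every library. The monocyte marker CD14 gave 144, 75, 260 and 331 counts in that order. Of 10 fibroblast markers, 5 to 8 were above 3 counts, with summed levels of 36.1, 57.0, 37.9 and 80.0 CPM. FAP was at 0 in every library, while DCN, LUM and POSTN were at 0 in the first 3 and at 4, 1 and 42 counts in the last. COL1A2 gave 17, 1, 0 and 67 counts and COL3A1 9, 18, 6 and 68. Of 10 genes typical of HEK293-like cells, a line of which served to make the viruses, 7 to 8 were above 3 counts, and SYT4 and STMN2 were at 0 in every library. Their summed level was 357 CPM in sc, 470 CPM in shDCBLD2, 354 CPM in the empty vector and lastly 975 CPM in the library labelled DCBLD2 overexpression. CKB alone made up 121 CPM and 737 CPM of the last 2 sums. PEG10 went the other way, with 218, 345, 139 and 81.2 CPM in the same order. MEIS2 and TSPYL5 were also lower in the last library than in the empty vector, while PCSK1N, HOXA9, HOXC10 and LIN28B were higher. The part of these genes in the values below was not tested.

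ATF4 is the transcription factor of the integrated stress response. When amino acids run short, when unfolded protein builds up in the endoplasmic reticulum or when haem is lacking, kinases phosphorylate the initiation factor eIF2, general translation slows, and the ATF4 message is translated better. ATF4 protein then binds the C/EBP-ATF response element next to genes for amino acid synthesis, amino acid transport and tRNA charging, so its activity need not follow the level of its message. Among its best known targets are PHGDH, PSAT1 and PSPH, which make serine from a glycolytic intermediate in consecutive steps, and the mitochondrial enzymes that pass the serine carbon on to folate. In lung cancer cells with active NRF2, among which A549 is known to be, NRF2 raises this programme through ATF4.

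The response element was looked for in RefSeq promoter windows (GRCh38.p14, 250 bases before to 50 after each gene start), which existed for 33 of the 40 genes. Windows for PSPH, SHMT2, ALDH1L2, PYCR1, GPT2, NUPR1 and INHBE were not used here. The letters TGATGNAA, on either strand, were in a window of 11 of the 33 genes, or 33.3%, against 4.46% of the 27305 gene symbols with a window. A gene counted if any of its windows matched, and the 33 genes had 55 windows where the 27305 symbols had 35116. The list was also chosen as ATF4 targets, so the higher share is not a result about these libraries. The 8 stretches below are those whose match begins before the gene start in every window that holds it, shown because they let the element be compared between genes that differed in these libraries and genes that did not. Each is written 5′ to 3′ on the strand that carries the element, with the element in capitals.
CHAC1: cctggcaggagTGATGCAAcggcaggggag
ASNS: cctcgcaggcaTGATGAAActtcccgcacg
AARS: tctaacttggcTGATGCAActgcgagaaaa
CARS: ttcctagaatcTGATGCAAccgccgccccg
GARS: ggctcggagcaTGATGAAAtcgccgcgtaa
MARS: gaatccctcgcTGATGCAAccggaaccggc
SLC1A4: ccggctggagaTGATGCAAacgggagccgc
SLC1A5: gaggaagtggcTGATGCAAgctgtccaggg
The capitals lie at chr15:40953262-40953269 for CHAC1, chr7:97872469-97872476 for ASNS, chr16:70289686-70289693 for AARS, chr11:3057418-3057425 for CARS, chr7:30594845-30594852 for GARS, chr12:57488064-57488071 for MARS, chr2:64989392-64989399 for SLC1A4 and chr19:46784904-46784911 for SLC1A5. SLC3A2 and SLC7A1 held a match after the gene start, and MTHFD1L held 1 that lies after 1 of its annotated starts and before others. SESN2, CBS, CTH and PHGDH, which were all higher in the library labelled DCBLD2 overexpression, held no match in these windows, which says only that these letters are not there. The cyclic AMP response element TGACGTCA was in the windows of 0 of the 33 genes, against 2.25% of all symbols. The core of the antioxidant response element, TGACNNNGC, which NRF2 binds, was in those of 12, or 36.4%, against 16.1%. A match is a description of the sequence and not a bound site.

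Levels in the 4 libraries differed widely between the genes. FPKM, which divides a gene's counts by its exonic length and by the library total, allows levels of different genes to be compared. SLC7A5, the catalytic chain of the large neutral amino acid transporter LAT1, was the highest, at 649 FPKM in sc, 772 in shDCBLD2, 497 in the empty vector and lastly 477 in the library labelled DCBLD2 overexpression. Its partner chain SLC3A2 stood at 166 to 237 FPKM, the stress-induced mTORC1 inhibitor DDIT4 at 107 to 220, the glutamine transporter SLC1A5 at 134 to 177 and ATF4 at 114 to 184. INHBE, an activin beta chain, stayed between 0.34 and 1.03 FPKM and the mitochondrial folate enzyme ALDH1L2 between 0.48 and 0.76. The 7 transporters alone took 0.49% of the counts in sc and 0.575% in shDCBLD2, more than the other 33 genes together. In the empty vector they took 0.418% and in the library labelled DCBLD2 overexpression 0.406%.

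Differences between libraries are given as log2 ratios of counts scaled by TMM, with a 95% interval that covers counting error only. A gene was counted as higher or lower when it differed at least 2-fold, or in a wider count 1.5-fold, and the interval excluded no change. With bulk RNA, fewer cells that express a gene and less of its RNA per cell cannot be told apart. In the library labelled DCBLD2 overexpression, 3 of the 40 genes were at least 2-fold higher than in the empty vector, among all genes 6.42%, and 1 was lower, among all genes 5.35%. At 1.5-fold, 6 were higher and 6 lower, against 12.8% and 17.8% of all genes. The median log2 ratio of the 40 genes was 0.00 and that of all genes -0.04, and 20 genes lay on each side of 0. In shDCBLD2 over sc, 0 genes were 2-fold higher and 2 lower, where all genes gave 1.16% and 5.62%. At 1.5-fold, 3 were higher and 6 lower, against 4.93% and 11.6%. The median was 0.08 for the 40 genes and 0.01 for all genes. The list as a whole was shifted little in both comparisons, and its members differed among themselves no more than genes in general. The distance between the quartiles of the log2 ratios was 0.57 for the 40 genes and 0.78 for all genes in the first comparison. In shDCBLD2 over sc it was 0.53 for each.

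**Figure D1:**
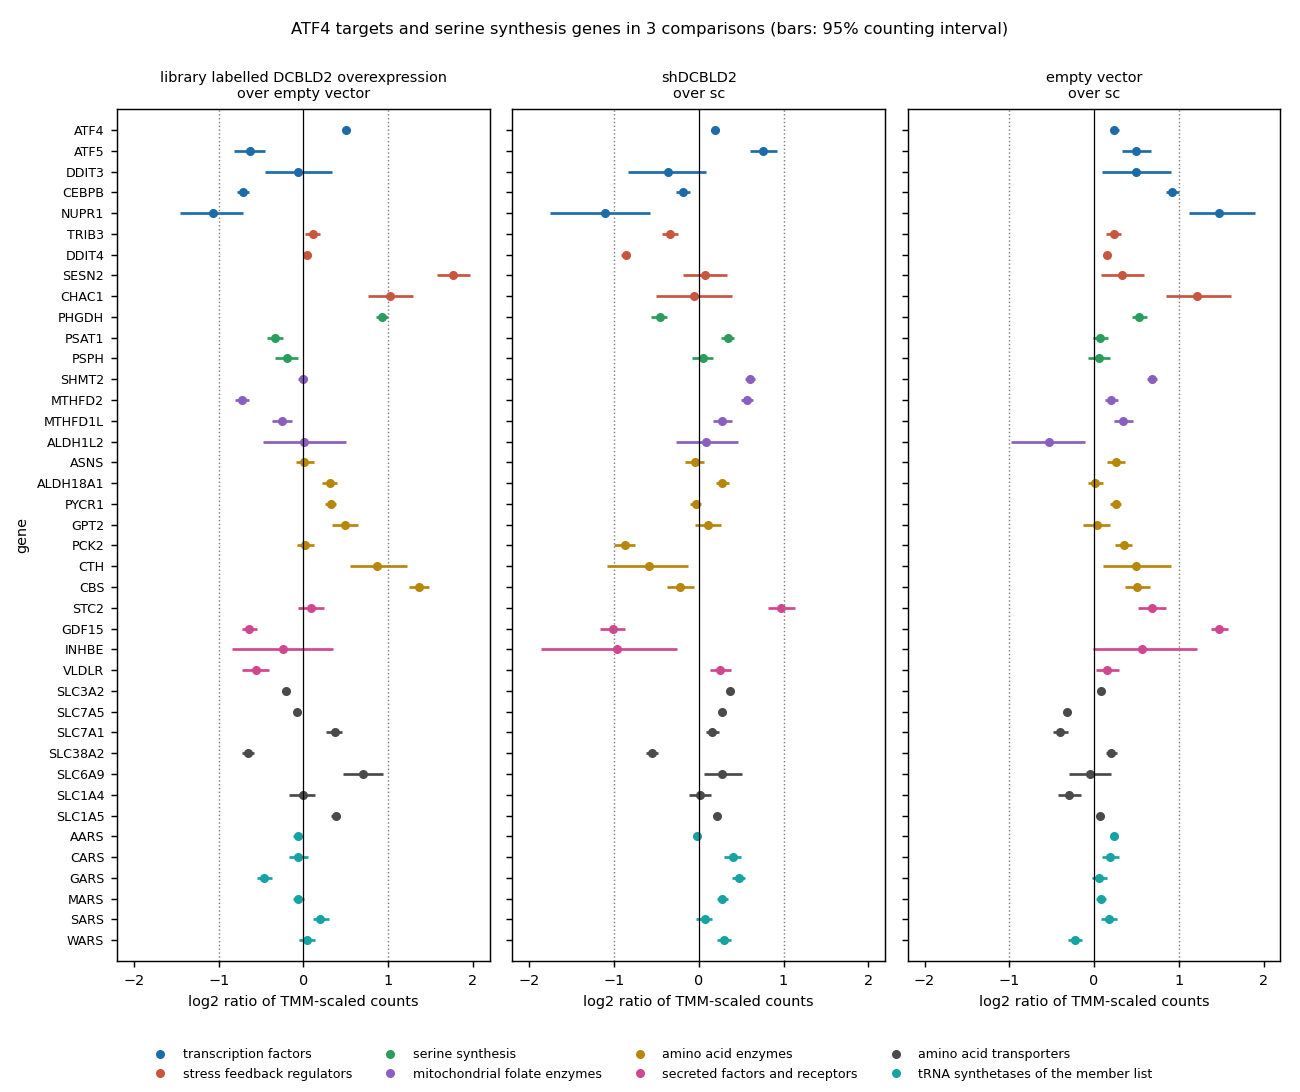
Log2 ratios of TMM-scaled counts for the 40 genes (vertical axis, coloured by role) in 3 comparisons, with bars for the 95% counting interval and dotted lines at 2-fold. SESN2 (1.77) and CBS (1.36) lie farthest right in the first panel, NUPR1 (-1.11) and GDF15 (-1.01) farthest left in the second, and 34 of 40 genes lie right of 0 in the third.

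Serine synthesis was led by PHGDH, the dehydrogenase of the first step, while the other 2 enzymes did not follow it. PHGDH (ENSG00000092621) had 103 CPM in sc, 74.5 in shDCBLD2, 148 in the empty vector and lastly 283 in the library labelled DCBLD2 overexpression. It was thus highest in the library labelled DCBLD2 overexpression and lowest in shDCBLD2, and no intervals overlapped. Over the empty vector the log2 ratio was 0.93 (0.86 to 1.00), or 1.91-fold, and that of shDCBLD2 to sc was -0.46 (-0.56 to -0.37), or 1.38-fold lower. PSAT1, the aminotransferase of the second step, ran the other way, with 115 CPM in sc, 146 in shDCBLD2, 122 in the empty vector and lastly 96.2 in the library labelled DCBLD2 overexpression. Its log2 ratios were -0.34 (-0.43 to -0.24) and 0.34 (0.26 to 0.42), though the first turned to 0.15 when set against genes of like GC content, as described below. PSPH, the phosphatase that releases serine, varied least, with 50.1, 51.7, 52.3 and 45.4 CPM in the same order. Its log2 ratios were -0.20 (-0.34 to -0.06) and 0.05 (-0.08 to 0.17). PSAT1 and PSPH have related copies elsewhere in the genome, and how reads shared with them were counted is not given in the sources used here.

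Because these 3 genes were counted in the same library, their ratios per exonic length need no scaling between libraries, but they are not free of the GC dependence described below, since the GC content was 58.3% for PHGDH, 42.3% for PSAT1 and 49.8% for PSPH. PHGDH over PSAT1 was 0.346 in sc (0.325 to 0.367) and 0.198 in shDCBLD2 (0.187 to 0.211). It was 0.474 in the empty vector (0.448 to 0.502) and 1.14 in the library labelled DCBLD2 overexpression (1.08 to 1.21). Without a correction for GC content, PHGDH passed PSAT1 in the last of these libraries alone. After centring on genes of like GC content, PHGDH stood at 0.68 and PSAT1 at 0.15 over the empty vector, so that the gap between them was smaller than the uncentred 0.93 and -0.34 give. PHGDH over PSPH ran from 0.707 in shDCBLD2 through 1.01 in sc and 1.39 in the empty vector to 3.06 in the library labelled DCBLD2 overexpression. PSAT1 over PSPH moved much less, between 2.67 and 3.57.

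**Figure D2:**
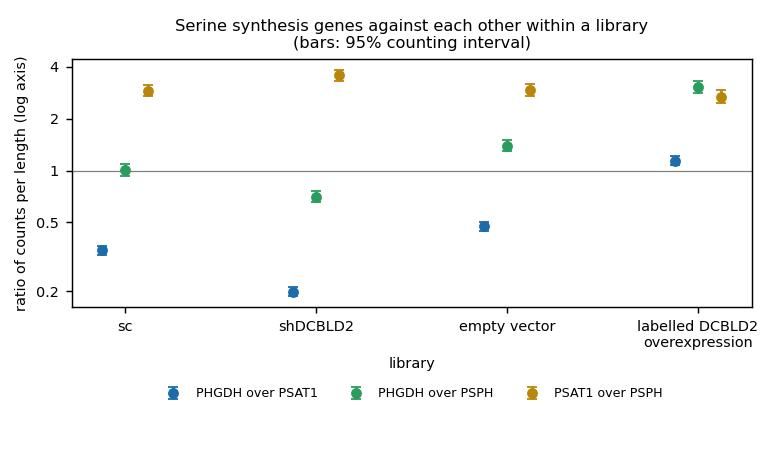
Counts per exonic length of 1 serine synthesis gene over another (vertical log axis) within each of the 4 libraries (horizontal axis), with 95% counting intervals. PHGDH over PSAT1 ran from 0.198 in shDCBLD2 to 1.14 in the library labelled DCBLD2 overexpression, while PSAT1 over PSPH stayed between 2.67 and 3.57. The ratios are not corrected for GC content.

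Of the transcription factors, ATF4 (ENSG00000128272) had 280 CPM in sc, 319 in shDCBLD2, 331 in the empty vector and lastly 466 in the library labelled DCBLD2 overexpression. The last library was highest, at 0.50 (0.45 to 0.55) on the log2 scale over the empty vector, or 1.41-fold. GC centring left 0.27 of this, and over sc it took 0.74 to 0.46. The shDCBLD2 library was at 0.19 (0.14 to 0.24) over sc but at -0.05 over the empty vector. NUPR1, a small stress-induced chromatin protein, had only 77, 38, 205 and 87 counts, or 3.94, 1.76, 11.2 and 5.27 CPM, in sc, shDCBLD2, the empty vector and lastly the library labelled DCBLD2 overexpression. It was lower in both designed comparisons, 2.10-fold in the library labelled DCBLD2 overexpression (log2 ratio -1.07, -1.46 to -0.71) and 2.16-fold in shDCBLD2 (-1.11, -1.76 to -0.58). CEBPB, the bZIP partner of ATF4, had 117, 103, 223 and 136 CPM in that order. Both NUPR1 and CEBPB were highest in the empty vector. Against sc the library labelled DCBLD2 overexpression was at 0.41 (-0.04 to 0.88) and 0.21 (0.13 to 0.30), and at 0.44 and -0.43 after GC centring. ATF5, a close relative of ATF4, had 25.6, 43.4, 36.2 and 23.3 CPM. It was higher in shDCBLD2 (0.76, 0.61 to 0.92) and lower in the library labelled DCBLD2 overexpression (-0.63, -0.82 to -0.45). With the other control, shDCBLD2 was at 0.26 (0.12 to 0.41) over the empty vector. The library labelled DCBLD2 overexpression was at -0.14 (-0.33 to 0.06) over sc, and at -0.54 after GC centring. The ATF5 locus overlaps NUP62 and IL4I1, and whether the counting used strand is not given, so that its counts are uncertain. The same holds for DDIT3, the CHOP gene, which overlaps MARS and had 3.52 to 6.43 CPM with intervals that included 0 in both comparisons.

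The largest log2 ratio of the 40 genes in either designed comparison was that of a feedback regulator. SESN2, a leucine sensor and mTORC1 inhibitor, had 12.2 CPM in sc, 12.8 in shDCBLD2, 15.4 in the empty vector and lastly 52.7 in the library labelled DCBLD2 overexpression. It thus lay between 12.2 and 15.4 CPM in 3 libraries and 3.40-fold above the empty vector in the fourth (log2 ratio 1.77, 1.58 to 1.97). CHAC1, which degrades glutathione, had 4.29, 4.13, 10.1 and 20.5 CPM and was 2.03-fold above the empty vector (1.02, 0.76 to 1.29). The empty vector was itself above sc for CHAC1, by 1.21 on the log2 scale. TRIB3, a pseudokinase that binds ATF4 and restrains it, varied less, from 79.8 CPM in shDCBLD2 to 128 in the library labelled DCBLD2 overexpression. DDIT4 had 399 CPM in sc, 219 in shDCBLD2, 443 in the empty vector and lastly 455 in the library labelled DCBLD2 overexpression. It was low in shDCBLD2 alone, 1.82-fold below sc (-0.86, -0.92 to -0.81).

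**Figure D3:**
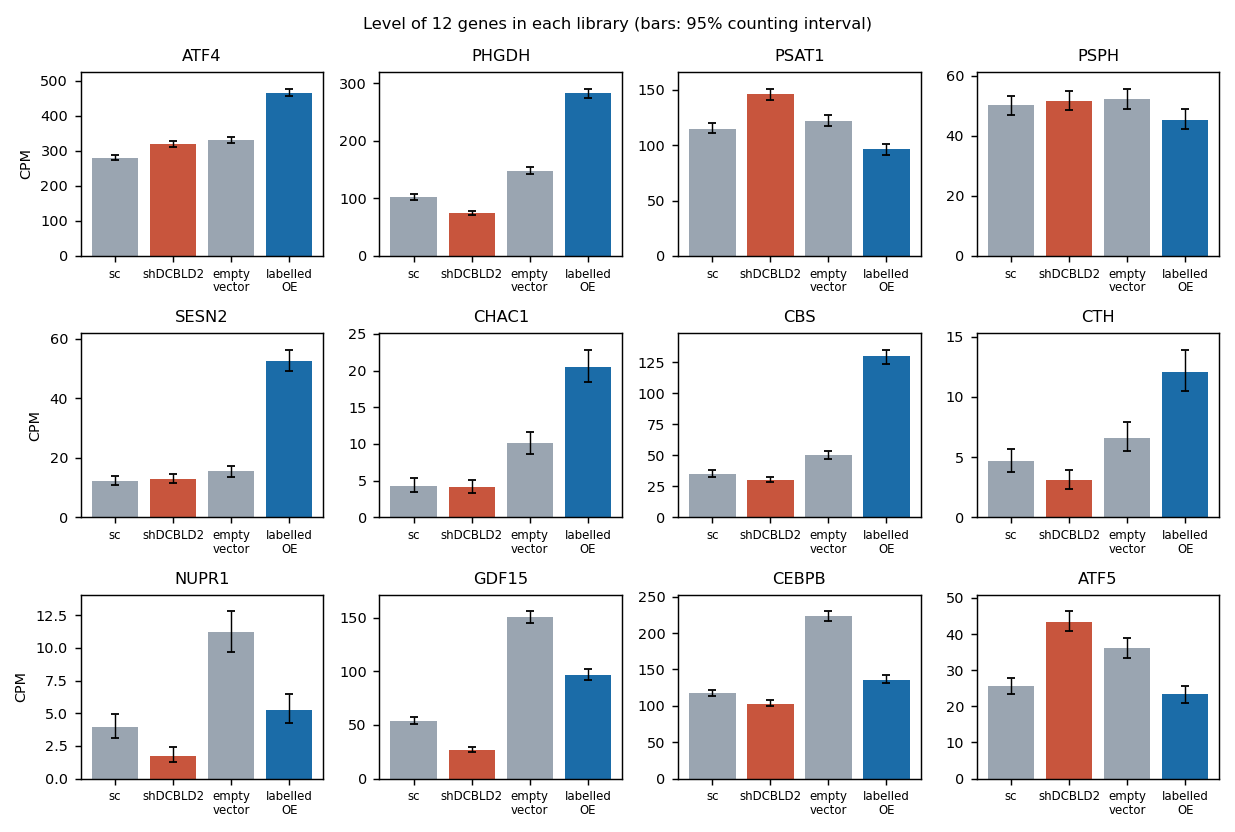
Level in CPM (vertical axes from 0) of 12 genes in the 4 libraries, with 95% counting intervals; "labelled OE" is the library labelled DCBLD2 overexpression. SESN2, CHAC1, CBS, CTH and PHGDH are highest in that library, while NUPR1, GDF15 and CEBPB are highest in the empty vector.

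The amino acid enzymes lay above the empty vector in the library labelled DCBLD2 overexpression in 7 of 7 cases, among all genes 47.1%, and in 5 of them the interval lay above 0, among all genes 31.9%. Their median was 0.32. After GC centring PCK2 was at -0.28, PYCR1 at 0.01, ASNS at 0.11, GPT2 at 0.30 and ALDH18A1 at 0.39. The 2 enzymes of transsulfuration, which turns homocysteine and serine into cysteine, stood out. CBS, which joins homocysteine and serine, had 35.3, 30.4, 50.4 and 130 CPM in sc, shDCBLD2, the empty vector and lastly the library labelled DCBLD2 overexpression. The last was 2.57-fold above the empty vector (1.36, 1.25 to 1.48). CTH, which releases the cysteine, had 91, 66, 121 and 200 counts, or 4.65, 3.06, 6.59 and 12.1 CPM, and was 1.82-fold above it (0.87, 0.55 to 1.22). Both had their lowest level in shDCBLD2, at log2 ratios to sc of -0.22 (-0.37 to -0.06) for CBS and -0.59 (-1.08 to -0.13) for CTH. CBS also has a near-identical copy in later genome builds. PCK2, the mitochondrial phosphoenolpyruvate carboxykinase, had 75.1, 40.9, 95.7 and 97.1 CPM and was 1.83-fold lower in shDCBLD2 than in sc (log2 ratio -0.87). GPT2, PYCR1 and ALDH18A1, which make alanine and proline, were at 0.49, 0.32 and 0.31 over the empty vector. ASNS, the asparagine synthetase and a common readout of ATF4, differed in neither comparison beyond counting error (0.01, -0.09 to 0.12, and -0.05, -0.16 to 0.06), with 69.0, 66.6, 82.4 and 83.1 CPM. ALDH18A1 had 117, 142, 118 and 146 CPM and was the highest of these enzymes in shDCBLD2, at 0.28.

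The mitochondrial folate enzymes were higher in shDCBLD2 than in sc, at a median of 0.43 with 3 of 4 intervals above 0, against 29.8% of all genes. SHMT2, which splits serine into glycine and a folate-bound carbon, had 181, 275, 289 and 287 CPM in sc, shDCBLD2, the empty vector and lastly the library labelled DCBLD2 overexpression. The sc library was the low one, so that shDCBLD2 was 1.52-fold above sc (0.60, 0.54 to 0.66) but at -0.08 over the empty vector. MTHFD2, the next enzyme of the path, had 141, 210, 162 and 98.3 CPM. It was highest in shDCBLD2 (0.57, 0.50 to 0.64) and lowest in the library labelled DCBLD2 overexpression (-0.72, -0.81 to -0.64), of which -0.21 was left after GC centring. MTHFD1L was at 0.28 in shDCBLD2 and -0.25 in the library labelled DCBLD2 overexpression, and at 0.29 and -0.37 after GC centring. With the other control the intervals included 0, at -0.06 (-0.17 to 0.05) for shDCBLD2 over the empty vector. The library labelled DCBLD2 overexpression was at 0.09 (-0.03 to 0.22) over sc. ALDH1L2 had 118, 139, 76 and 69 counts, with intervals that included 0 in both designed comparisons.

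Among secreted factors and receptors, GDF15, a circulating stress cytokine, had 54.0 CPM in sc, 26.7 in shDCBLD2, 151 in the empty vector and lastly 96.9 in the library labelled DCBLD2 overexpression. It was 2.02-fold lower in shDCBLD2 than in sc (-1.01, -1.17 to -0.87). The library labelled DCBLD2 overexpression was at -0.64 (-0.73 to -0.55) against the empty vector but at 0.84 against sc (0.32 after GC centring), so that its direction depended on the control. STC2, a glycoprotein of the secretory path, had 25.7, 50.5, 41.3 and 44.0 CPM and was 1.96-fold higher in shDCBLD2 than in sc (0.97, 0.82 to 1.13). INHBE had 41, 22, 58 and 44 counts in the 4 libraries, which gave shDCBLD2 over sc a wide interval (-0.97, -1.86 to -0.26). VLDLR, a lipoprotein receptor, lay lower in the library labelled DCBLD2 overexpression (-0.56) and slightly higher in shDCBLD2 (0.25).

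The transporters moved about as much as other genes, and the tRNA synthetases moved little in the library labelled DCBLD2 overexpression alone. Over the empty vector the median log2 ratio without its sign was 0.37 for the transporters, 0.07 for the synthetases and 0.39 for all genes. In shDCBLD2 over sc it was 0.28, 0.29 and 0.26. In shDCBLD2, 6 of 7 transporters lay above sc, at a median of 0.21, and 5 of 6 synthetases, at a median of 0.29, where 50.9% of all genes lay above it. In neither group was any gene at least 1.5-fold higher. SLC3A2 was the highest of the transporters at 0.37, with 958, 1238, 1015 and 875 CPM in the order used above, and SLC7A5 was at 0.28. The exception was SLC38A2, a sodium-coupled neutral amino acid transporter, with 203, 139, 234 and 149 CPM in sc, shDCBLD2, the empty vector and lastly the library labelled DCBLD2 overexpression. It was lower in both comparisons, at -0.55 (-0.62 to -0.48) in shDCBLD2 and -0.65 (-0.72 to -0.58) in the library labelled DCBLD2 overexpression, where -0.05 was left after GC centring. SLC6A9, a glycine transporter, had 14.2, 17.2, 13.7 and 22.2 CPM and was 1.62-fold above the empty vector in the last library (0.70, 0.47 to 0.94). SLC1A5 and the cationic amino acid transporter SLC7A1 followed at 0.38 and 0.37, and at 0.07 and 0.23 after GC centring. Over sc, SLC7A1 was at -0.03 (-0.12 to 0.06) in that library. SLC1A4, which carries alanine, serine and cysteine, differed in neither designed comparison beyond counting error. Of the synthetases, which load tRNAs with their amino acids, GARS (glycine) had 130, 180, 136 and 98.9 CPM. It was the highest of them in shDCBLD2 (0.47, 0.39 to 0.54) and the lowest in the library labelled DCBLD2 overexpression (-0.46, -0.55 to -0.37). CARS, MARS and WARS were at 0.40, 0.28 and 0.30 in shDCBLD2. SARS, with 90.0, 94.3, 102 and 117 CPM, was at 0.20 over the empty vector in the library labelled DCBLD2 overexpression. AARS, with 364, 359, 429 and 409 CPM, stayed within 0.07 of its control in both comparisons. SLC1A5, SLC6A9, WARS, GARS, ALDH1L2, SHMT2 and PCK2 also overlap other entries with counts, and their own counts are uncertain to that extent.

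The 2 designed comparisons share no library, and a gene that followed the level of DCBLD2 in the labels would lie on opposite sides of 0 in them. With intervals that excluded 0 in both, TRIB3, PHGDH, CTH and CBS were higher in the library labelled DCBLD2 overexpression and lower in shDCBLD2. ATF5, PSAT1, MTHFD2, MTHFD1L, VLDLR, SLC3A2, SLC7A5 and GARS showed the reverse. ATF4, ALDH18A1, SLC7A1, SLC6A9 and SLC1A5 were higher in both, and CEBPB, NUPR1, GDF15 and SLC38A2 lower in both. These 4 patterns held 4, 8, 5 and 4 of the 40 genes, where all genes gave 13.1%, 15.8%, 6.92% and 6.02%. Spearman's rho between the ratios was -0.10 over the 40 genes and -0.30 over the 13966, as a description across genes, which are not independent. By the measured counts, DCBLD2 was lower in both comparisons.

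**Figure D4:**
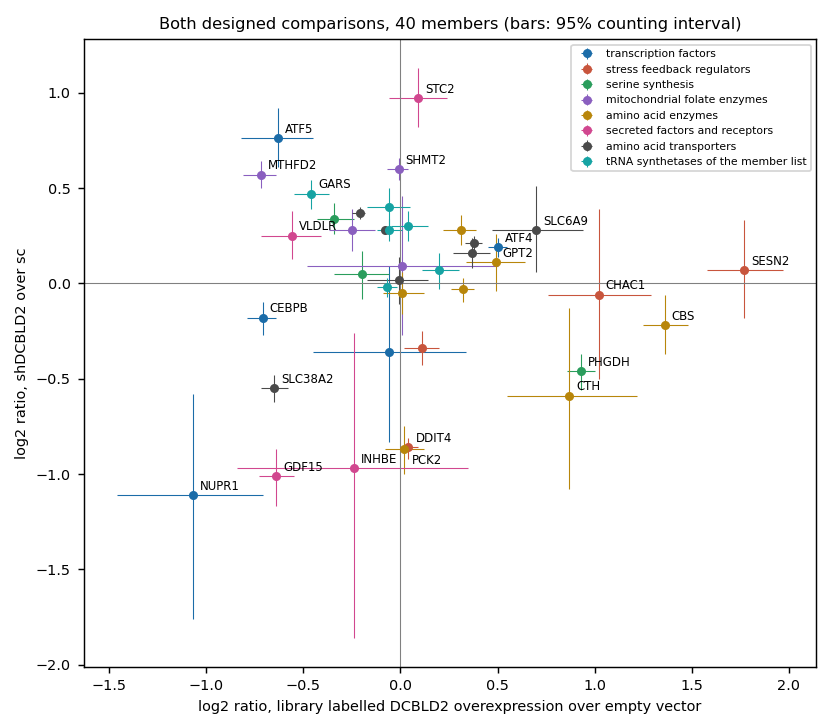
Log2 ratio of shDCBLD2 over sc (vertical axis) against that of the library labelled DCBLD2 overexpression over the empty vector (horizontal axis) for the 40 genes, coloured by role, with 95% counting intervals. PHGDH, CTH and CBS lie at the lower right, ATF5 and MTHFD2 at the upper left, and NUPR1 and GDF15 at the lower left.

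The 2 controls differed from each other in this list. In the empty vector, 34 of the 40 genes lay above sc, against 49.2% of all genes, at a median of 0.22 against -0.01 for all genes. At 2-fold, NUPR1, CHAC1 and GDF15 were higher and 0 genes lower, where all genes gave 2.22% and 1.89%. At 1.5-fold these were joined by CEBPB, SHMT2 and STC2, 6 genes in all, with 0 lower, against 7.07% and 6.67%. NUPR1 and GDF15 both stood at 1.48 on the log2 scale, or 2.79-fold and 2.78-fold, and CEBPB at 0.92. This comparison too moved with GC content, with a Spearman's rho of 0.31 over all genes. After GC centring NUPR1 was at 1.52 and GDF15 at 1.26, which left 2 genes at 2-fold, where all genes gave 1.92%. CEBPB was at 0.58, which left 5 genes at 1.5-fold, where all genes gave 6.16%. These ratios share the empty vector and sc libraries with the designed comparisons, and the level in the empty vector enters both. A stricter reading asks which genes lay beyond both controls. At 1.5-fold, SESN2, CHAC1, PHGDH, CTH, CBS and SLC6A9 were above both in the library labelled DCBLD2 overexpression, among all genes 9.36%, and 0 were below both, among all genes 13.7%. In shDCBLD2, NUPR1, DDIT4, PCK2, CTH, GDF15 and INHBE were below both, among all genes 8.03%, and 0 were above both, among all genes 2.83%. CTH was the only gene in both sets, high in the first library and low in the second.

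The ratios of the library labelled DCBLD2 overexpression to the empty vector also moved with the GC content of the transcript. Over 13690 genes Spearman's rho was 0.57, and the median ratio ran from -0.64 in the lowest of 20 GC bins to 0.28 in the highest. For shDCBLD2 over sc rho was -0.20. The 40 genes had a median GC content of 53.6%, against 49.6% for all genes. The ratios were therefore also centred on genes of like GC content. SESN2 (1.47), CTH (1.25), CBS (1.07), CHAC1 (0.73) and PHGDH (0.68) then stayed at least 1.5-fold higher, and NUPR1 (-1.10), CEBPB (-0.99), ATF5 (-0.93) and GDF15 (-0.93) at least 1.5-fold lower. These were 5 and 4 of the 40 genes, where all genes gave 11.7% and 7.76% after the same centring. SLC6A9 fell under 1.5-fold, at 0.40. The low ratios of genes poor in GC shrank, from -0.72 to -0.21 for MTHFD2, from -0.65 to -0.05 for SLC38A2 and from -0.56 to -0.08 for VLDLR. PSAT1 turned from -0.34 to 0.15 and TRIB3 from 0.11 to -0.20. In shDCBLD2 over sc, centring left PHGDH at -0.37, PSAT1 at 0.23, TRIB3 at -0.25 and MTHFD2 at 0.44. After centring, PSAT1 and TRIB3 no longer lay on opposite sides of 0 in the 2 designed comparisons. PHGDH, CTH, CBS, ATF5, MTHFD2, MTHFD1L, VLDLR, SLC3A2, SLC7A5 and GARS still did. Of these, SLC3A2 was then at -0.44 and 0.44, SLC7A5 at -0.38 and 0.38, GARS at -0.37 and 0.47 and VLDLR at only -0.08 and 0.14. The origin of the GC dependence was not tested.

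**Figure D5:**
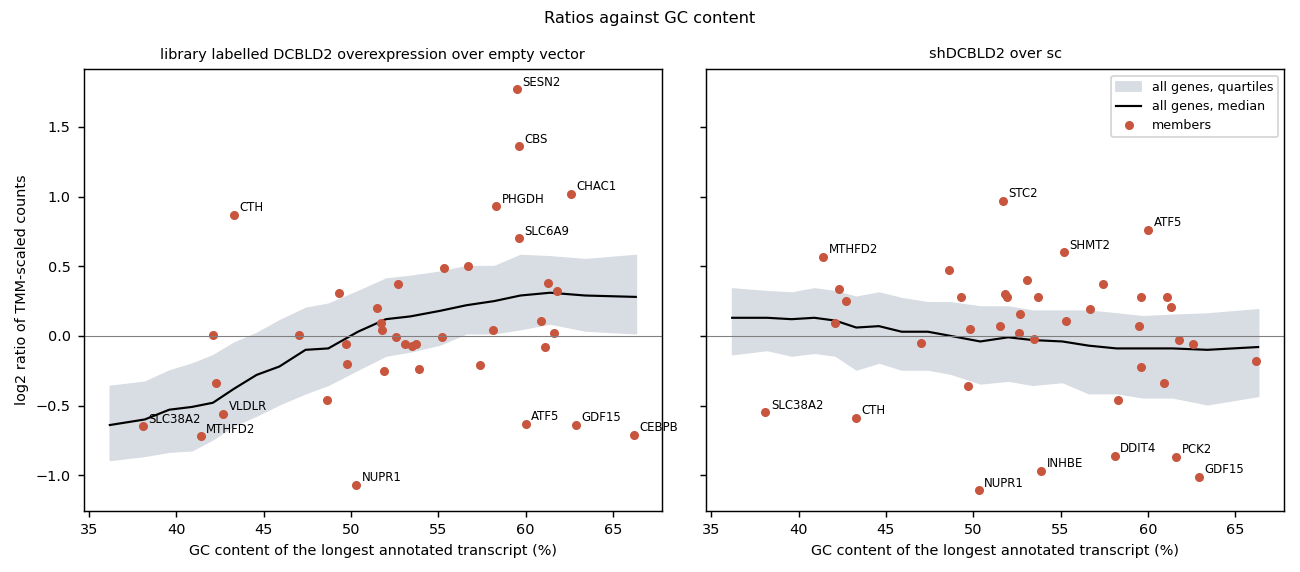
Log2 ratio of TMM-scaled counts (vertical axis) against GC content of the longest annotated transcript (horizontal axis) for the library labelled DCBLD2 overexpression over the empty vector (left) and shDCBLD2 over sc (right). The line and band are the median and quartiles of all genes in 20 GC bins, which rise from -0.64 to 0.28 on the left, and the points are the 40 genes, with SESN2, CBS, CTH and PHGDH above the band and NUPR1, CEBPB, GDF15 and ATF5 below it.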

How the data were processed

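Total RNA of 4 cultures of A549 cells was made into poly(A) libraries (Illumina TruSeq RNA kit with a NEBNext poly(A) module), 1 per condition. The authors deposited raw gene counts and FPKM values, together with exonic gene sizes; the 4 tables of single samples held the same values as the joint table, and FPKM recomputed from counts and sizes differed by at most 0.005. The aligner, counter and use of strand are not given in the sources used here. The submitters' processing notes name mm9, a mouse build, although the genes are human, so deposited coordinates served only to find entries that overlap, which 22 of the 40 genes have.

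The members and gene lists were chosen with earlier results of these data known. Counts were scaled by TMM (edgeR 4.0.16 in R 4.3.3) and 2 counts were added before log2 ratios were formed. The exact 95% Clopper-Pearson interval was taken on the share of the 2 counts. It covers counting error only, and with no replicate there is no test and no p-value. Genes with a mean below 1 CPM were left out. Depth differed 1.30-fold between the largest and the smallest library, and the lowest count of a member was 22. The scripts were tested on simulated data. Values in all libraries are given for ATF4, the serine synthesis genes, every gene counted as higher or lower at 2-fold, and the highest and lowest gene of each role. Others were added after their values were seen. Alternatives were DESeq2 1.42.0 size factors, library totals, other added counts and filters, a 1.5-fold threshold, FPKM and the other control. Centring in 20 bins of GC content, known for 98% of the genes from GENCODE transcripts, alone or with exonic length, was added after the data had been seen. Centred values are given without an interval. Those counted as higher or lower met the fold and had an interval, shifted by the same amount, that excluded no change.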

Additional observations from a re-analysis of the deposited data

How the results depend on the processing

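With 1 library per condition no library could be left out. No paired analysis was possible because each group holds a single library. For the library labelled DCBLD2 overexpression over the empty vector, the counts of higher and lower genes at 2-fold were 3 and 1. They became 6 and 6 at 1.5-fold. With sc as the control they were 5 and 0 at 2-fold, where all genes gave 8.08% and 8.98%. The median then moved to 0.29, against -0.04 for all genes, and NUPR1 was at 0.41 with an interval that included 0 (-0.04 to 0.88). The ratios to sc also moved with GC content, with a Spearman's rho of 0.65 over all genes, and GC centring left a median of 0.13. Against the empty vector, centring by GC content and length gave 0 lower genes and a median of -0.12. For shDCBLD2 over sc, 3 genes were higher at 1.5-fold. The 2 lower genes became 6 at 1.5-fold, 1 with DESeq2 size factors, 1 with GC centring and 0 with GC and length centring. With the empty vector as the control they became 8, against 8.01% of all genes, and GC centring left 4, against 6.91%. The median with that control moved to -0.06, against 0.02 for all genes. For the empty vector over sc the 3 higher genes became 6 at 1.5-fold. GDF15 in shDCBLD2 (-1.01) lies at the 2-fold line, so these small counts turn on single genes. Other added counts, other filters and library totals changed none of these counts by more than 1.5 times. Without replicates, differences between cultures cannot be separated from those between conditions.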

Other observations

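The neighbours of these genes in the same pathways were read with the same ratios, from 6 further lists. In the library labelled DCBLD2 overexpression, where DCBLD2 itself was lower than in the control, the 14 other cytosolic tRNA synthetases lay at a median of -0.61 over the empty vector, and the 6 of the member list at -0.06. Of the 14, 7 were at least 1.5-fold lower, against 17.8% of all genes, RARS (-1.37) and TARS (-1.05) among them, and FARSA (0.80) higher. In shDCBLD2 over sc, 13 of 14 lay above 0, against 50.9% of all genes, at a median of 0.32, and the 6 at 0.29, with RARS at 0.64 and TARS at 0.74. Their median GC content was 43.9%, and after centring by GC content the medians of the 14 were -0.23 and 0.27 and that of the 6 was -0.20 in the first comparison, with RARS at -0.86 and TARS at -0.67. The 17 mitochondrial synthetases were at -0.09 and 0.19.

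Of 16 further ATF4 target genes, 14 passed the filter, and SLC7A3 had 0 counts in every library. In the library labelled DCBLD2 overexpression, ATF3 (161 counts against 61, log2 ratio 1.52) and ADM2 (81 against 42, 1.07) were at least 2-fold above the empty vector and FAM129A (38 against 122, -1.49) below it. FAM129A depended on the control, since it had only 28 counts in sc. The library labelled DCBLD2 overexpression was at 0.65 over sc, with an interval that included 0 (-0.06 to 1.44). The shDCBLD2 library was at -1.30 over the empty vector. VEGFA was at 0.80 over the empty vector but at 0.18 over sc, since the empty vector, with 28.1 CPM, was its lowest library. The tRNA exporter XPOT (-0.95) and the cystine carrier SLC7A11 (-0.77) were lower than in the empty vector. After GC centring XPOT was at -0.44 and SLC7A11 at -0.13, and the median of the list went from 0.22 to -0.03. In shDCBLD2 over sc, ATF3 was at -0.61 and FAM129A at 0.84, with a median of 0.00 for the list. Among eIF2 kinases and factor subunits the median was -0.24 in the first comparison and 0.08 in the second, and EIF2S2, the beta subunit of eIF2, was at -1.07 and 0.59. After GC centring the first median was -0.03 and EIF2S2 was at -0.78. The cytosolic folate and glycine cleavage genes were at medians of -0.13 and 0.07, with AMT (36 counts against 18) at 1.07 in the first. The list of endoplasmic reticulum chaperones and related genes was at -0.09 and -0.04. In the first comparison XBP1, which is not itself a chaperone, was at 0.78 and the chaperone HSP90B1 at -0.83, which centring moved to 0.76 and -0.34.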
